A study of Rattus norvegicus with 8 samples.

Results

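BAG3, the small heat shock proteins and their partners form the machinery of chaperone-assisted autophagy, and their transcripts are described here in rat spinal motoneurons at 2 postnatal ages. Of 10 listed genes (Bag3, Bag1, Hspb1, Hspb8, Hspb6, Cryab, Hspa8, Stub1, Sqstm1 and Hsf1), 9 had at least 1 probe set whose platform annotation gave that symbol alone, 13 probe sets in all among the 31042 on the array. Hspa8, the constitutive Hsp70, had 0 such probe sets, since the 1 that carries its symbol also carries another, and no level is given for it. The genes were chosen by their roles and with the P21 and P1 intensities of these same arrays already known, so the difference between the ages is given for them as a description without a p-value.

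Motoneurons, which release acetylcholine onto muscle, were captured by laser from cresyl violet stained sections of lumbar cord of Wistar albino rats of 1 day (P1, while axons are being myelinated) and 21 days (P21, after myelination). Each age had 4 arrays, each array 1500 to 2000 captured cells and RNA from a pool of 4 rats, and pups from 4 litters supplied both ages. No genetic change or treatment is named for any animal, and their sex is not stated in the labels.

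Small heat shock proteins bind unfolding proteins without using ATP and keep them from aggregating. BAG3 joins them, most closely HSPB8, to Hsp70 and its ubiquitin ligase CHIP (the product of Stub1), and the cargo is passed to autophagosomes with the help of p62 (Sqstm1). HSF1 is the transcription factor that binds heat shock elements, inverted repeats of nGAAn units, in the promoters of many chaperone genes. Changes in HSPB1, HSPB8 and BAG3 are known in people as causes of inherited motor neuropathy or myopathy.

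Promoter sequence was at hand for 8 of the 10 genes, from RefSeq on the GRCr8 assembly, and is shown because 4 members that stood far higher at P21 (below) carry the same 8 letters there. Both strands of the 250 bases before each start site were searched for the 2 forms of a pair of heat shock units, GAANNTTC and TTCNNGAA, each of which reads the same on both strands. Bag3, Hspb1, Hspb8 and Hspb6 each hold GAANNTTC with the letters GAAGTTTC, shown in capitals in these 30-base stretches, each written 5′ to 3′ on the strand of its gene.
Bag3, chr1:192533317-192533346, plus strand: ggatgggaccaGAAGTTTCtagccggccag
Hspb1, chr12:26432412-26432441, minus strand: cttcaactagaGAAGTTTCcagatgggggc
Hspb8, chr12:45837274-45837303, plus strand: agaagccaggaGAAGTTTCtaggcgcgtga
Hspb6, chr1:94934212-94934241, plus strand: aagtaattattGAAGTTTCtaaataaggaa

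GAAGTTTC began at base -132 before the start site in Bag3, -129 in Hspb1, -149 in Hspb6 and -23 in Hspb8. The Hspb8 start site used by the table lies 1409 bases inside the outermost annotated start of that gene, so its window is not the only candidate promoter. Among all 33469 windows of the same length, GAAGTTTC or its reverse complement was found in 1.22%, GAANNTTC in 7.23% and TTCNNGAA in 7.48%. The 8 exact letters were singled out after these promoters had been read, and a match is a description of sequence, not a bound site.

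The whole 250 bases are shown for Bag3, Hspb1 and Hspb6, which carry GAAGTTTC before their outermost annotated start, with every pair of either form in capitals. Hspb1 has a second GAANNTTC, and Hspb6 has a TTCNNGAA far upstream.
Bag3, chr1:192533210-192533459, plus strand: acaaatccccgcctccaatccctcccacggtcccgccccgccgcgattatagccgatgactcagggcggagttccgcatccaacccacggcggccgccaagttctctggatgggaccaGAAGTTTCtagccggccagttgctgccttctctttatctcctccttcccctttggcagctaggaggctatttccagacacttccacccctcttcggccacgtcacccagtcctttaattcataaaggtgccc
Hspb1, chr12:26432302-26432551, minus strand: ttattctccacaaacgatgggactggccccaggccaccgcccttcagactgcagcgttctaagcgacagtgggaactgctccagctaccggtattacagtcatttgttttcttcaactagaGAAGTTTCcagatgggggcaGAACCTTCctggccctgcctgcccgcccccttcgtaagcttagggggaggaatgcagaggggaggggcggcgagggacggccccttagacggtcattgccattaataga
Hspb6, chr1:94934122-94934371, plus strand: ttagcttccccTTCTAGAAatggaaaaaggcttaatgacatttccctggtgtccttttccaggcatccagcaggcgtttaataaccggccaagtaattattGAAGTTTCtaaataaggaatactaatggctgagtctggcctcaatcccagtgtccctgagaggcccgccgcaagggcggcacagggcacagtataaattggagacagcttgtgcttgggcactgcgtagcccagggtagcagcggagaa

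The promoters of Bag1, Stub1 and Sqstm1 held 0 pairs of either form in the same 250 bases, as did most windows, since 13.5% of them all hold 1 form or the other. That of Hspa8 held 2 of each, and in both places a GAANNTTC and a TTCNNGAA share 1 unit and so make a row of 3 alternating units, a form found on either strand in 0.663% of all windows. Cryab and Hsf1 were not searched.

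**Figure D1:**
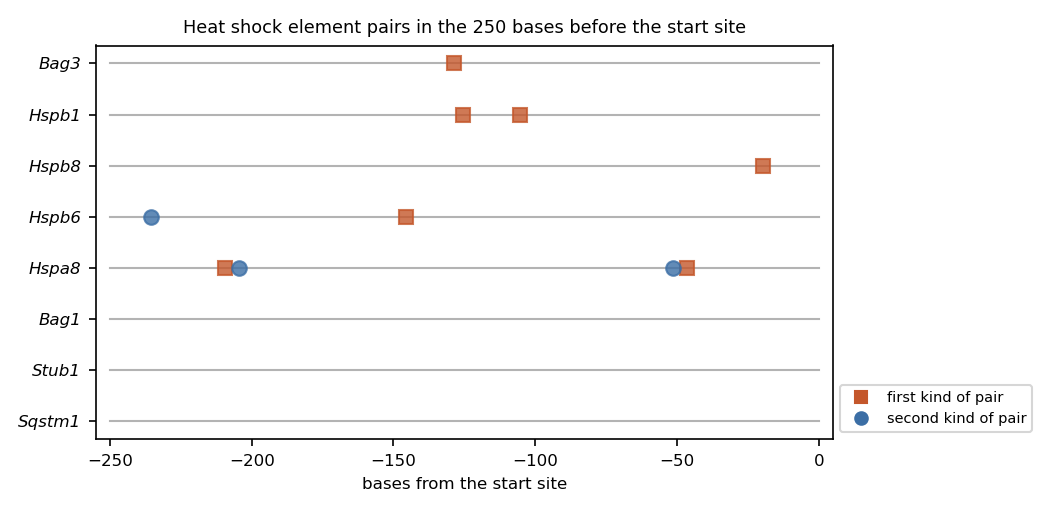
Position of heat shock element pairs in the 250 bases before the start site (horizontal axis, bases from the start site at 0) of 8 genes; squares (first kind of pair) mark GAANNTTC and circles (second kind) TTCNNGAA. Bag3, Hspb1, Hspb8 and Hspb6 each have at least 1 square, the Hspa8 pairs fall in 2 overlapping clusters, and Bag1, Stub1 and Sqstm1 have no mark.

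Levels below are linear probe-set intensities as the authors deposited them. A change is the difference between the ages in mean log2(intensity + 16), P21 minus P1, written ± SE, with 4 arrays per age; a fold is 2 to that power and understates the change of dim genes. The filter level is the 40th percentile of each array, between 221 and 287, and a probe set counted as measured if it exceeded that level on at least 4 of the 8 arrays. Levels of different probe sets cannot be set against each other. RNA of other cells caught by the laser is part of every pool, and fewer cells of a type cannot be told apart from less RNA per cell.

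Bag3, Hspb1, Hspb8 and Hspb6 read 3.54-fold to 13.3-fold higher at P21, and Cryab 2.68-fold higher. Stub1 and Sqstm1, whose products act in the same pathway as BAG3, and the other co-chaperone Bag1 stayed within 1.18-fold. In 6 of the 9 measured genes all 4 P21 intensities lay above all 4 P1 intensities, on the probe set of highest mean. The same 6 passed limma's threshold of an adjusted p under 0.05. Hsf1, among these 6, was measured only through its P21 arrays, so it had to differ to be counted. Of all 10961 genes, 21.9% separated in that direction and 18.2% in the other. The threshold was passed by 39.4% of the genes, made up of 22% that were higher and 17.4% that were lower at P21, and by 38.3% of the 19155 probe sets. A change of at least 1 toward P21 was found in 6.05% of the genes. Nothing is read from the members' count, since the contrast was known when they were picked.

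**Figure D2:**
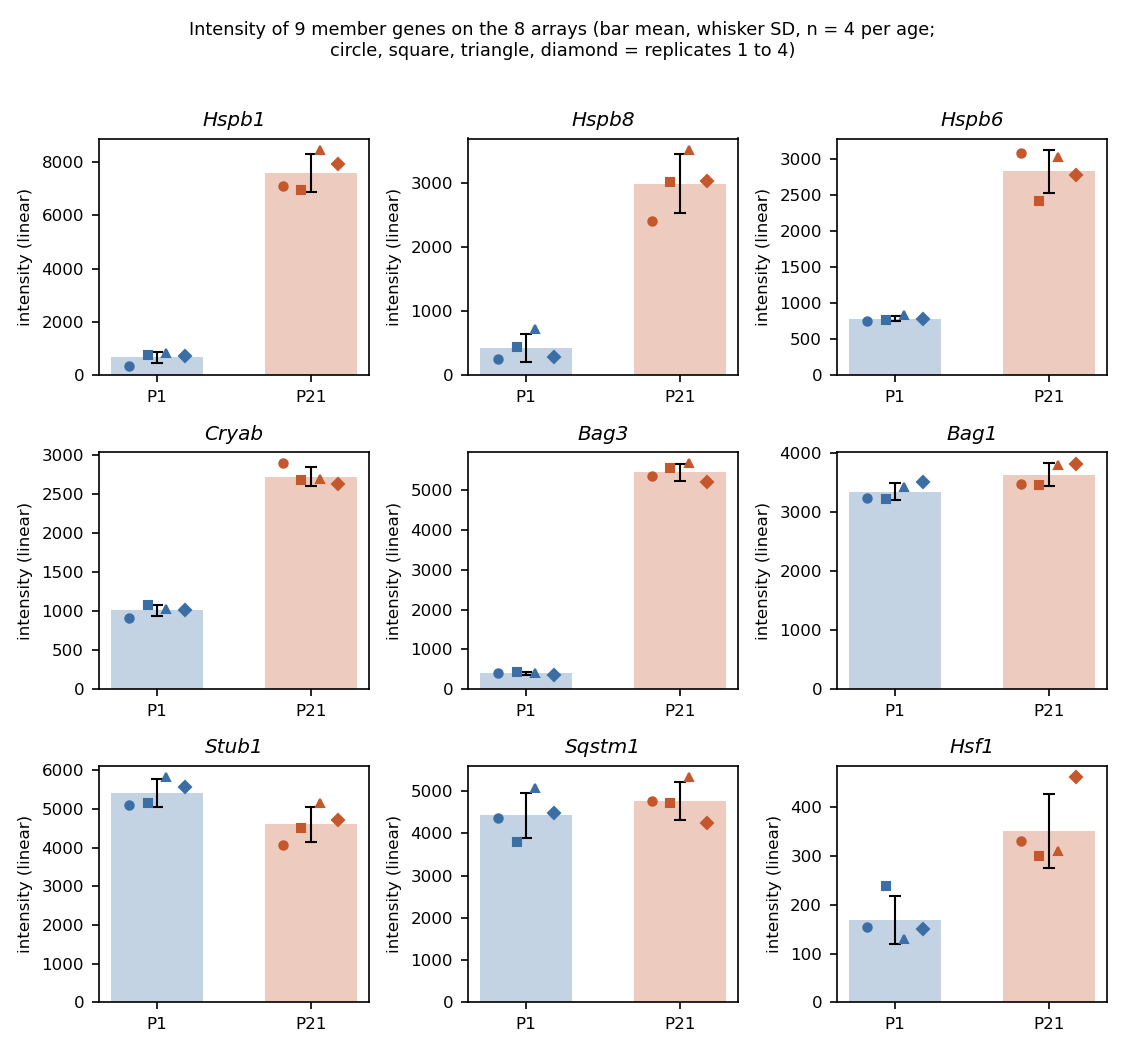
Intensity (vertical axes, linear, from 0, each panel on its own scale) of the 9 measured genes on the 4 P1 and 4 P21 arrays; bars are means, whiskers SD and symbols single arrays. The P21 points lie above all P1 points for Hspb1, Hspb8, Hspb6, Cryab, Bag3 and Hsf1, and overlap them for Bag1, Stub1 and Sqstm1.

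Hspb1 encodes Hsp27, a chaperone that binds intermediate filaments and actin and is abundant in adult motoneurons. It read 361, 773, 836 and 730 on P1 replicates 1 to 4 and 7082, 6940, 8451 and 7908 on P21 replicates 1 to 4. P1 replicate 1 was well below the other P1 arrays, and every P21 array stood far above all of the P1 arrays. The means were 675 ± 213 and 7595 ± 712 (SD, n = 4), a change of 3.52 ± 0.23 or 11.5-fold, and 3.26 without P1 replicate 1. By change, highest first, Hspb1 ranked 26 of the 10961 genes.

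Hspb8 encodes Hsp22, the small heat shock protein that binds BAG3. Its brighter probe set read 257, 446, 727 and 289 at P1 and 2408, 3016, 3522 and 3033 at P21. Replicate 3 was the highest array at both ages, and P1 replicate 1 lay under the filter level. The means were 430 ± 215 and 2995 ± 456, a change of 2.86 ± 0.29 or 7.26-fold (rank 44), and 3.14 without P1 replicate 3. Its second probe set was dim, between 29.8 and 86.1 at P1, under the filter level on all 4 arrays, and between 157 and 373 at P21, above it on 2. That probe set did not enter the tests, and its P21 arrays also lay above all of its P1 arrays.

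Hspb6 encodes Hsp20, a partner of BAG3 best known from muscle. It read 758, 765, 833 and 781 at P1 and 3073, 2419, 3028 and 2777 at P21. The P1 arrays were close together, with an SD of 34.2 around 784, and the P21 arrays, at 2824 ± 300 (SD), were all more than 2 times higher than any of them. The change was 1.82 ± 0.10, or 3.54-fold (rank 183).

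Cryab encodes αB-crystallin, a small heat shock protein of lens, muscle and glia, oligodendrocytes among them. It read 905, 1082, 1032 and 1013 at P1 and 2897, 2683, 2691 and 2633 at P21. The groups were well apart and narrow, 1008 ± 74.7 and 2726 ± 117, with a change of 1.42 ± 0.09 or 2.68-fold (rank 309). Oligodendrocyte markers were also higher on the P21 arrays: the summed intensity of 10 markers of those cells was 9242 to 11229 at P1 and 37554 to 40004 at P21. The part of that in the Cryab difference was not tested.

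Bag3, the co-chaperone that links the small heat shock proteins to Hsp70, had the largest change among the members. It read 412, 423, 402 and 344 at P1 and 5354, 5576, 5684 and 5217 at P21. The 4 arrays of each age agreed closely, 395 ± 35.3 and 5458 ± 211, and the ages were far apart. The change was 3.74 ± 0.09, or 13.3-fold, with ratios of intensity + 16 of 12.5, 12.7, 13.6 and 14.5 between arrays of the same number. Bag3 ranked 19 of the 10961 genes by change.

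Bag1, which couples Hsp70 to the proteasome rather than to autophagy, read 3226, 3215, 3411 and 3505 at P1 and 3470, 3458, 3785 and 3805 at P21. The ages overlapped, although each P21 array was above the P1 array of its number. The change was 0.12 ± 0.08, or 1.09-fold. Bag1 and Bag3 are often described as a pair that shifts toward BAG3 with age or stress. Of those 2 transcripts Bag3 alone separated P1 from P21, and whether that is such a shift was not tested.

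Stub1, the ubiquitin ligase CHIP, was the 1 member that read lower at P21. Its intensities were 5099, 5158, 5837 and 5574 at P1 and 4069, 4501, 5151 and 4725 at P21. The highest P21 array reached into the P1 range, and each P21 array was below the P1 array of its number. The change was -0.23 ± 0.10, or 1.18-fold lower; it did not pass the threshold in the fit without pairing and did pass with the replicate number as a block.

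Sqstm1, the p62 receptor that carries ubiquitinated cargo to autophagosomes, had 4 probe sets. The brightest read 4369, 3786, 5072 and 4483 at P1 and 4762, 4718, 5338 and 4247 at P21, with a change of 0.11 ± 0.11 and overlapping ages. The next read between 3046 and 3547 at P1 and between 3550 and 4531 at P21, a change of 0.24 ± 0.10 with no overlap, though P1 replicate 3 and P21 replicate 1 were nearly equal. The other 2 were under the filter level on all 8 arrays, with means of 176 and 218 for 1 and of 114 and 112 for the other at P1 and P21. Of the 2 that were tested, 0 passed the threshold.

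Hsf1 was dim. It read 155, 239, 129 and 149 at P1, all under the filter level, and 331, 299, 310 and 462 at P21, all above it. The ages did not overlap, and the difference is given as at least 1.35-fold, the P21 mean over the filter level at P1 on the log2 scale (fitted change 1.00 ± 0.19). It was measured only through its P21 arrays, so it had to differ to be counted. HSF1 is regulated mainly by trimer formation and phosphorylation, which transcript levels do not show.

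**Figure D3:**
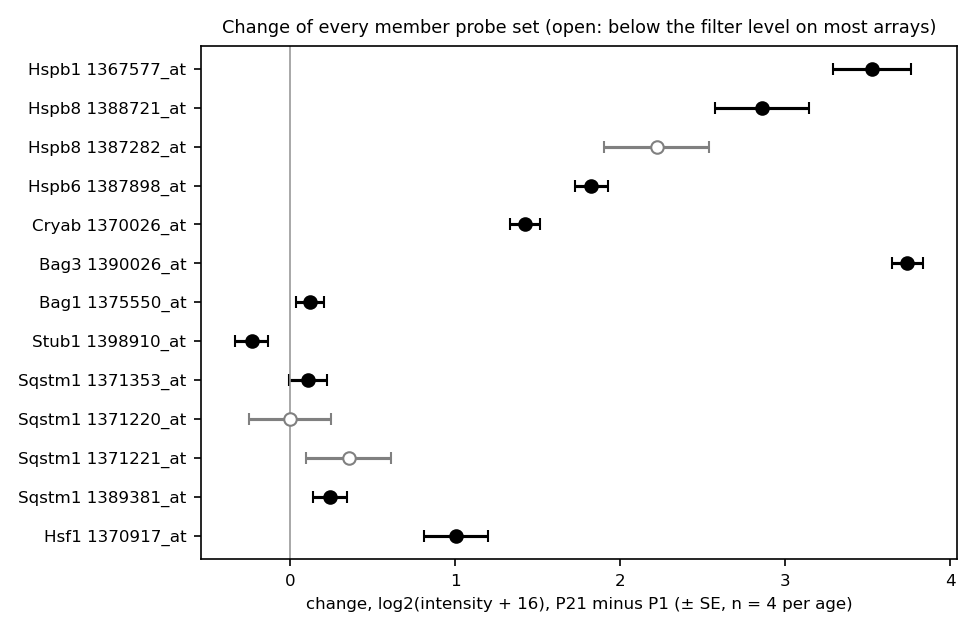
Change of each of the 13 member probe sets (horizontal axis, log2(intensity + 16), P21 minus P1, whiskers SE, n = 4 per age); filled points exceeded the filter level on at least 4 arrays and open points did not. Bag3, Hspb1 and Hspb8 lie farthest to the right, and Bag1, Stub1 and Sqstm1 lie near 0.

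Within an age, the 4 small heat shock protein genes varied together to different degrees, while Bag3 was positively correlated with Hspb8 alone. Over the 8 deviations from the age means, Bag3 correlated at -0.19 with Hspb1, 0.36 with Hspb8, -0.08 with Hspb6 and -0.02 with Cryab. The highest of the 10 pairs were Hspb1 with Cryab (0.73) and Hspb1 with Hspb8 (0.71), where P1 replicate 1 was lowest for each of these 3 genes. These are descriptions over 8 arrays that share amplification and scaling.

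The genes most like each member were taken by Pearson correlation of log2 levels over the 8 arrays among 10952 other genes, a measure that the age difference dominates. For Bag3 they were Myh14, a non-muscle myosin heavy chain (0.999), P2rx6, an ATP receptor subunit (0.999), and Ano3, an anoctamin (0.998), which went from 432 to 4470. For Hspb1 they were Mbnl2, a splicing regulator (0.998), Pcsk2, a prohormone convertase (0.997), and Gskip (0.997). For Hspb8 they were Gna14 (0.990), Krt13 (0.990) and Tomm34 (0.989), and for Cryab Enpp2, which encodes autotaxin (0.998), the receptor gene Gpr37 (0.998) and Gpd1 (0.997). With the age means removed, the correlations with Bag3 were 0.91 for Myh14, 0.45 for P2rx6 and 0.55 for Ano3. Those with Hspb1 were 0.97 for Mbnl2, 0.92 for Pcsk2 and 0.91 for Gskip. Those with Hspb8 were 0.88 for Gna14, 0.86 for Krt13 and 0.86 for Tomm34, and those with Cryab 0.89 for Enpp2, 0.78 for Gpr37 and 0.73 for Gpd1. These deviations are part of the correlations by which the genes were picked.

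Other proteostasis genes were read from 10 lists. Of 128 further genes in them, 110 were measured; 29 rose, 13 fell and 68 did not pass limma's test, with a median change of 0.04, against 0.05 over all 10961 genes. Without P1 replicate 3 or P1 replicate 4 the count of falls was 8. Over all genes 22% were higher and 17.4% lower at P21, the shares that belong beside these counts and those of each list below. The median change of the 9 members was 1.42, a value their choice fixes. The largest rises among the 110 were those of Hsf4 (2.95, on a probe set measured only through its P21 arrays), Dnaja4 (1.55) and Sil1 (1.30), and the largest falls those of Hdac6 and Bag4 (both -0.80).

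**Figure D4:**
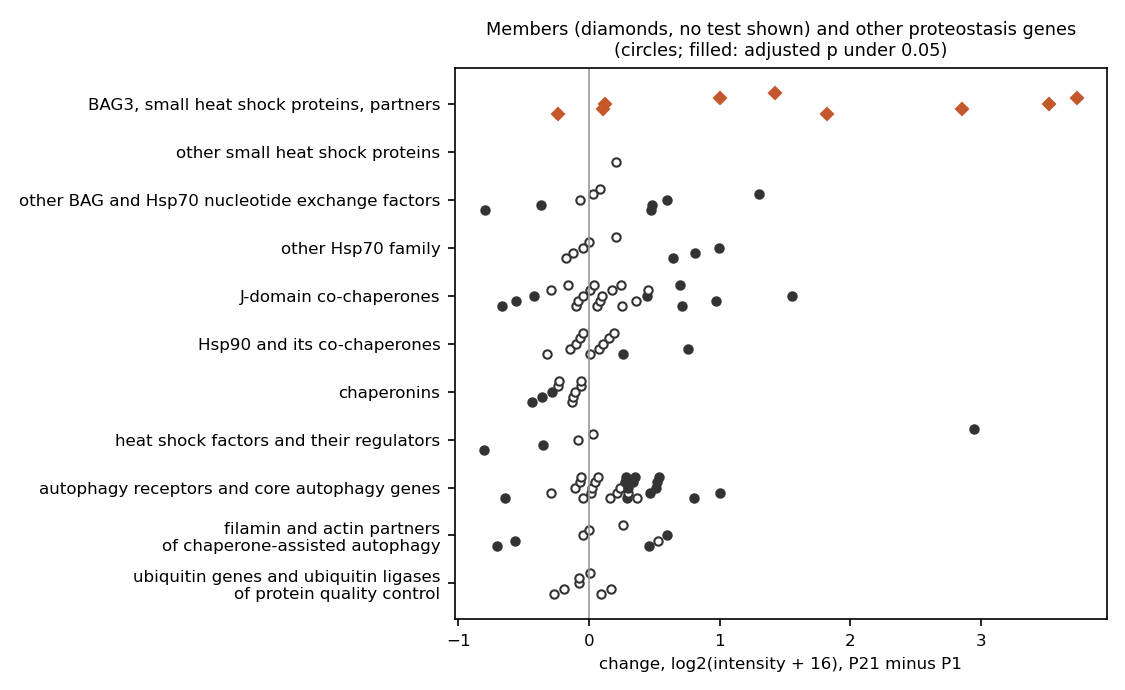
Change of each gene (horizontal axis, log2(intensity + 16), P21 minus P1) for the 9 members (diamonds) and 110 other proteostasis genes in 10 lists (circles, filled where limma's adjusted p was under 0.05). The circles lie between -0.80 and 1.55 except for Hsf4, at 2.95, and 29 filled circles lie above 0 and 13 below; the diamonds run from -0.23 (Stub1) to 3.74 (Bag3).

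Among Hsp70 nucleotide exchange factors, the class of proteins to which BAG3 belongs, 4 of 9 rose and 2 fell. Sil1, the exchange factor of the endoplasmic reticulum, rose from 181 ± 32.7 to 469 ± 60.8 (change 1.30 ± 0.14, adjusted p = 8.93e-05). It was under the filter level on every P1 array except replicate 3. Bag2, an inhibitor of CHIP, rose from 1108 ± 105 to 1679 ± 121 (0.59 ± 0.10, adjusted p = 0.00139). Bag4 fell from 1230 ± 62.5 to 703 ± 71.4 (-0.80 ± 0.10, adjusted p = 2.22e-04). Bag6 fell by less (-0.37 ± 0.11, adjusted p = 0.0263), with an adjusted p of 0.0551 to 0.0783 without the filter or with any of P1 replicates 1, 3 and 4 and P21 replicates 1, 2 and 4 left out. The BAG family thus held transcripts that were higher, lower and little different at P21.

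Of 8 other Hsp70 genes, 3 rose and 0 fell. Hspa1a, the stress-inducible Hsp70, rose from 379 ± 86.6 to 763 ± 115 (change 1.00 ± 0.17, adjusted p = 0.00150), and Hspa2 rose from 279 ± 89.3 to 487 ± 47.7 (0.81 ± 0.19, adjusted p = 0.00796). Hspa1a is nearly identical to its neighbour Hspa1b, so its probe set may read both. Hspa5 of the endoplasmic reticulum (-0.05 ± 0.08) and Hspa9 of mitochondria (-0.18 ± 0.09) did not pass.

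Of 23 J-domain proteins, which deliver clients to Hsp70, 5 rose, 3 fell and 15 did not pass, beside 22% higher and 17.4% lower over all genes; with the replicate block 6 rose and 4 fell. Dnaja4 rose from 1085 ± 77.8 to 3217 ± 343 (change 1.55 ± 0.10, adjusted p = 5.00e-06) and Dnajb14 from 1041 ± 248 to 2025 ± 229 (0.97 ± 0.16, adjusted p = 0.00130). Dnajc2 (-0.67 ± 0.13, adjusted p = 0.00238) and Dnajb5 (-0.56 ± 0.19, adjusted p = 0.0420) fell. As the mean of their probe sets neither passed (adjusted p = 0.328 and 0.403), and Dnajb5 had an adjusted p of 0.0706 to 0.0911 without the filter or with any of P1 replicates 2, 3 and 4 and P21 replicates 1 and 2 left out. Dnajb6 and Dnajb2 had changes of 0.36 ± 0.33 and 0.25 ± 0.10 and did not pass.

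Of 12 genes of Hsp90 and its co-chaperones, 2 rose and 0 fell on the probe set of highest mean. Hsp90ab1 did not pass on that probe set (-0.10 ± 0.08), but its second fell (-0.43 ± 0.13, adjusted p = 0.0242). The second probe set of Fkbp5 rose (1.29 ± 0.13, adjusted p = 6.94e-05). Hsp90aa1 was not measured. Fkbp5, a glucocorticoid-induced co-chaperone, rose from 768 ± 113 to 1309 ± 194 (change 0.76 ± 0.14, adjusted p = 0.00234). Stip1, which joins Hsp70 to Hsp90, rose by 0.26 ± 0.08 (adjusted p = 0.0313), but its adjusted p was 0.156 with arrays centred on their medians and 0.0541 to 0.0708 without the filter or without any 1 array other than P1 replicate 3. Of 10 chaperonin genes 3 fell and 0 rose, or 5 fell with the replicate block and 5 with centred arrays. Tcp1 fell from 8060 ± 340 to 5956 ± 360 (-0.44 ± 0.09, adjusted p = 0.00327), and Cct6a by 0.36 ± 0.09 (adjusted p = 0.0134), which as the mean of its 2 probe sets did not pass (adjusted p = 0.890).

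Among heat shock factors and regulators, 1 of 5 rose and 2 fell. Hsf4, the heat shock factor best known from the lens, where it controls crystallin genes, read 135 ± 31.4 at P1, under the filter level on all 4 arrays, and 1145 ± 238 at P21. The difference is given as at least 4.27-fold (adjusted p = 3.24e-06), and like Hsf1 it was measured only through its P21 arrays, so it had to differ to be counted. Hdac6, which carries aggregates to the aggresome, fell from 2673 ± 182 to 1534 ± 192 (-0.80 ± 0.11, adjusted p = 3.41e-04). Hsbp1, a binding protein of HSF1, fell by 0.35 ± 0.10 (adjusted p = 0.0181), with 0.0526 and 0.0566 without P1 replicate 3 and 4. Hsf2 (0.03 ± 0.08) and Vcp (-0.08 ± 0.11) did not pass.

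Autophagy genes rose in 12 of 27 cases and fell in 1, beside 22% higher and 17.4% lower over all genes. Their median change was 0.28, and 7 rose with arrays centred on their medians. Tbk1, the kinase that phosphorylates p62 and optineurin, rose from 1919 ± 106 to 3356 ± 141 (change 0.80 ± 0.08, adjusted p = 7.53e-05). Wipi1, of the phagophore, rose by 1.00 ± 0.11 (adjusted p = 7.49e-05) on the brighter of its probe sets, while the other fell by 0.28 (adjusted p = 0.0470). Optn, the optineurin gene, rose by 0.52 ± 0.09 (adjusted p = 0.00145) on its brighter probe set and had a change of 0.21 ± 0.11 on the other (adjusted p = 0.178), whereas Map1lc3a, an LC3 gene, had a change of 0.01 ± 0.09. Ulk2, an initiating kinase, fell by 0.65 ± 0.18 (adjusted p = 0.0207), with 0.0544 to 0.0589 without P1 replicate 3, P1 replicate 4, P21 replicate 2 or P21 replicate 4. Optn and Map1lc3a were chosen after their values were seen.

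Among filamins and other partners named with BAG3 in muscle, 2 of 8 rose and 2 fell; with the replicate block 4 rose, and with centred arrays or quantile normalization 0 did. Flnc, filamin C, the classic client of the BAG3 pathway, fell from 414 ± 51.1 to 250 ± 49.8 (change -0.70 ± 0.14, adjusted p = 0.00355). That probe set was under the filter level on every P21 array except replicate 2. The second Flnc probe set, at 0.05 ± 0.13, did not pass. Stx7 fell by 0.57 ± 0.10 (adjusted p = 0.00206). Flna rose by 0.60 ± 0.19 (adjusted p = 0.0350) and Synpo by 0.46 ± 0.16 (adjusted p = 0.0431). Flna had an adjusted p of 0.0589 to 0.0815 without the filter, under either scaling, or with any of P1 replicates 1, 2 and 3 and P21 replicates 2 and 4 left out. That of Synpo was 0.0644 to 0.113 without the filter, under either scaling, or with any of P1 replicates 1, 3 and 4 and P21 replicates 2 and 4 left out. Of 7 ubiquitin genes and ligases of protein quality control 0 rose and 0 fell, and of 7 further small heat shock protein genes only Odf1 was measured (0.21 ± 0.16, not passing).

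Markers show which other cells could contribute. Motoneuron markers had summed intensities of 45940 to 49645 over 8 genes at P1 and 47250 to 53698 at P21. Nefl, Nefm, Nefh and Prph, with P1 means of 7947 to 10676, dominate those sums. Of the 8 genes, 0 lay under the filter level throughout an age. Chat rose from 1377 ± 244 to 3451 ± 450 (adjusted p = 8.66e-05). Isl1, a transcription factor of young motoneurons, fell by 1.67 ± 0.24 and was under the filter level on every P21 array except replicate 3. Oligodendrocyte markers rose in 9 of 10 cases, Mbp from 2002 ± 606 to 8289 ± 705 (adjusted p = 5.78e-05; change 2.09, or 1.30 as the mean of its probe sets), and Mobp, Mog and Opalin were under the filter level on all P1 arrays. Astrocyte markers rose in 6 of 9 cases (4 with centred arrays) and fell in 1, with sums of 14654 to 16292 at P1 and 18834 to 22686 at P21; Gfap rose by 1.53 ± 0.17 (adjusted p = 9.92e-05). Microglial and macrophage sums were 2363 to 3525 at P1 and 4704 to 8713 at P21. Of 6 measured genes 4 rose, Lyz2 by 4.01 ± 0.45 (adjusted p = 1.10e-04), and Cx3cr1 and Itgam were under the filter level on every array. Tyrobp, among those that rose, and the oligodendrocyte genes Mobp, Mog and Opalin were measured only through their P21 arrays. These genes had to differ to be counted.

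Vessel markers are of interest because Hspb1 and Hspb6 are also expressed in smooth muscle. Their sums (5695 to 6534 at P1, 6306 to 13746 at P21) overlapped between the ages through P21 replicate 4 only. Of 10 measured genes 4 rose, or 2 with quantile normalization. Those that rose were Rgs5, a pericyte gene (1.02 ± 0.15, adjusted p = 6.55e-04), and the endothelial genes Tek (0.83, adjusted p = 0.0160), Flt1 (0.75, adjusted p = 0.00521) and Pecam1 (0.66, adjusted p = 0.0440). The smooth muscle genes Acta2 (-0.12 ± 0.14) and Myh11 (0.09 ± 0.17) and the endothelial gene Cldn5 (0.30 ± 0.27) did not pass. Tagln and Cnn1, which were not tested, were under the filter level on all P1 arrays but not on all P21 arrays. Schwann cell sums were 7408 to 10118 at P1 and 11766 to 16241 at P21 (3 of 4 measured genes rose), and erythrocyte sums were 2986 to 8615 and 9214 to 12827 (2 of 4 rose). The part of these cells in the members' differences was not tested.

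**Figure D5:**
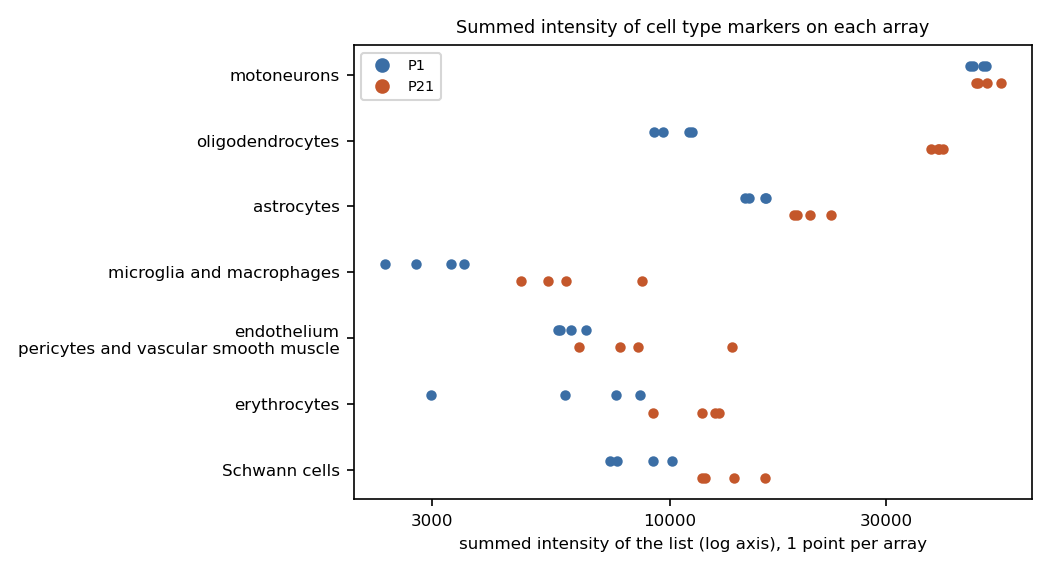
Summed intensity of each marker list (horizontal axis, log scale) on the 4 P1 and 4 P21 arrays, 1 point per array. Oligodendrocyte sums lie at 9242 to 11229 at P1 and 37554 to 40004 at P21. Motoneuron sums overlap between the ages, and vessel sums overlap through P21 replicate 4 only.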

How the data were processed

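Expression was measured on Affymetrix RAE230 2.0 arrays from RNA amplified in 2 rounds primed at the poly(A) tail, per the labels' protocols, which favours 3′ ends. For 31042 probe sets on 8 arrays the authors deposited values on a linear intensity scale; their summarization, background correction and scaling are not given in the sources used here. Array medians ran from 323 to 416, correlations between arrays were 0.958 to 0.986 at the same age and 0.821 to 0.868 across ages, and between 66 and 250 values per array were below 0. For arrays, their number limits the precision.

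Probe sets were named by the platform annotation, with symbols checked by gene identifier against GRCr8 (20826 had 1 symbol, 436 several, 9780 none; 20758 identifiers matched and 0 symbols changed). Negative values were raised to 0 and log2(intensity + 16) was compared between the ages with limma 3.58.1 (lmFit and eBayes) in R 4.3.3, without covariates, over the 19155 probe sets above the 40th percentile of their array on at least 4 arrays. Benjamini-Hochberg adjustment ran over all of these, at a threshold of 0.05; the procedure was tested on simulated data. The brightest kept probe set stood for each of 10961 genes. The members and lists were chosen with earlier results of these data known. Beside all members, the text names the 2 largest rises and the 2 largest falls among the called genes of each list, fixed markers (Chat, Mbp, Gfap, Lyz2, Cldn5, Acta2) and the 3 genes most correlated with Bag3, Hspb1, Hspb8 and Cryab; others named were chosen after their values were seen.

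Both ages carry replicate numbers 1 to 4. With age means removed, arrays of equal number correlated at 0.51, 0.32, 0.56 and 0.15, which was read as pairing; the design text divides litters between ages without tying a number to a litter. P1 replicate 4 and P21 replicate 3 correlated at 0.37. Alternatives were other pseudocounts (1 and 64), no filter or the 60th percentile, centring, quantile normalization, the replicate block and leaving out each array. For genes outside the members only, the mean of a gene's probe sets was another.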

Additional observations from a re-analysis of the deposited data

Results flagged for a closer look

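Sets of 4 intensities, 86 in all, were examined for the members, the fixed markers and the largest called changes of each proteostasis list. Each set held 1 probe set at 1 age. Of these sets, 2 held an array far from the other 3, where chance gives about 1 in 20. Bag6 read 826.6 on P21 replicate 3, against 639.1 to 662 on the other P21 arrays. Flnc read 324 on P21 replicate 2, against 219.5 to 234 on the others. Neither is a member, and 0 of the 13 member probe sets held such an array. Genes named outside those groups were not examined this way. Among them, Tyrobp read 1025 on P21 replicate 4, against 325 to 403 on the other P21 arrays.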

How the results depend on the processing

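All recalculations use the same 8 arrays, whose contrast was known when the members were picked, so they give the members no independent support. The changes of the 9 members were not recalculated as the mean of a gene's probe sets. They kept their direction and their side of the threshold in 132 of 134 recalculations. The exception was Stub1, which passed with the replicate block and with arrays centred on their medians, so that 1 member counted as lower in place of 0 under those 2 settings; the cause was not tested. The change of Bag3 ran from 3.59 to 3.79, of Hspb1 from 3.26 to 3.65, of Hspb8 from 2.66 to 3.14, of Hspb6 from 1.75 to 1.89 and of Cryab from 1.35 to 1.46. Called probe sets numbered 7329, and between 5866 and 8805 under the alternatives (5985 to 7419 with 1 array left out). Members called higher numbered 6, or 5 under the filter of the 60th percentile, where Hsf1 was not tested. Proteostasis genes outside the members counted 29 higher (21 to 32) and 13 lower (8 to 18); with 1 array left out the falls numbered 8 to 13, fewer arrays being fitted, and with the replicate block 32 rose and 17 fell. The replicate block changed no call of the other genes named by the rule; beside the list counts given above for chaperonins, J-domain proteins and filamins with their partners, it put 1 Hsp90 gene lower in place of 0, and among autophagy genes Calcoco1 and Atg7 lost their calls while Atg13 and Tfeb gained one. Of 474 recalculations for those other genes, 427 kept their call, 47 lost it and 0 reversed. Centring moved the median change of all probe sets from 0.07 to -0.01 and the percentage of calls that were higher from 54.4% to 44.6%. Dim probe sets, Hsf1 and the second of Hspb8 among them, are limited by signal over background.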
